A study of Mus musculus with 2 samples.

Results

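The genes described here are the innate immune sensor and effector genes of the mouse, taken by name from 7 families: the Toll-like receptors (Tlr), the NOD-like receptors (Nlrc, Nlrp and Nlrx1), the Naip genes, the Ifi2 genes, the guanylate binding proteins (Gbp), the interferon regulatory factors (Irf) and the oligoadenylate synthetases (Oas). The name patterns selected 82 protein-coding genes of the RefSeq annotation, of 21774 on the chromosomes. A replication timing value was found for 80 of them, and 21225 protein-coding genes had one in all. The values came from 1 early and 1 late S phase library of 46C cells, a mouse embryonic stem cell line (129P2/Ola) kept in leukemia inhibitory factor (LIF). Both libraries came from cells given 50 µM BrdU, a thymidine analogue that marks new DNA, during 2 h before sorting by DNA content. DNA of 10000 cells a fraction was precipitated with an anti-BrdU antibody, amplified and sequenced by Ion Torrent. The gene coordinates are those of the C57BL/6J reference, another strain.

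The authors joined both libraries in 1 score per genomic position, smoothed over 300 kb. A gene takes the score of the position nearest its midpoint, within 100 kb. Positive scores are read as early and negative ones as late, since early precedes late in the table's name. No source used here gives its unit, scaling or zero point, so differences are not read as folds. With 1 library per fraction there is no replicate error, no test between conditions and no p-value, and counts and medians are set beside those of all protein-coding genes. The score holds no expression values, so the labelled cell type could not be checked against its markers.

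Innate immune genes detect microbial molecules with receptors encoded in the germ line. Toll-like receptors sample the cell surface and endosomes, NOD-like receptors and Naip proteins sample the cytosol and build inflammasomes, and several Ifi2 proteins of the PYHIN class bind nucleic acids. Signals from these sensors activate interferon regulatory factors, and interferons in turn induce effectors such as the Gbp GTPases and the Oas enzymes. Many of these genes lie in tandem clusters made by duplication. Pluripotent stem cells are known for weak interferon responses, and most of these genes serve mainly in other cell types.

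The innate immune genes were divided between early and late, with a median near 0. Of the 80 genes, 43 (53.8%) had a score above 0, against 73.5% of all protein-coding genes, and 37 (46.2%) had one below 0, against 26.5%. Their median score was 0.033 (quartiles -0.37 and 1.30), and that of all protein-coding genes was 1.02 (quartiles -0.08 and 1.52). Scores ran from -1.43 for Tlr11, a receptor for the protein profilin of protozoa, to 1.78 for Nlrx1, a mitochondrial NOD-like receptor.

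Genes alone in their locus and genes in clusters differed in level. Genes with bounds within 300 kb share smoothed reads and are not separate measurements, and joining them left 42 loci, of which 28 (66.7%) had a median above 0. The 30 genes alone in their locus had a median of 1.09, and 23 of them (76.7%) lay above 0. Both values were near those of all protein-coding genes, a median of 1.02 with 73.5% above 0. The 50 genes in the 12 loci of 2 or more members had a median of -0.10, with 20 (40%) above 0. These 50 are counted by gene, and the share over the 12 loci was not computed. Leaving out the 11 genes of the PYHIN cluster alone gave 43 of 69 (62.3%) above 0. With the zero point moved to the autosomal median, 55 of 80 genes (68.8%) lay above it, against 78.5% of all protein-coding genes.

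**Figure D1:**
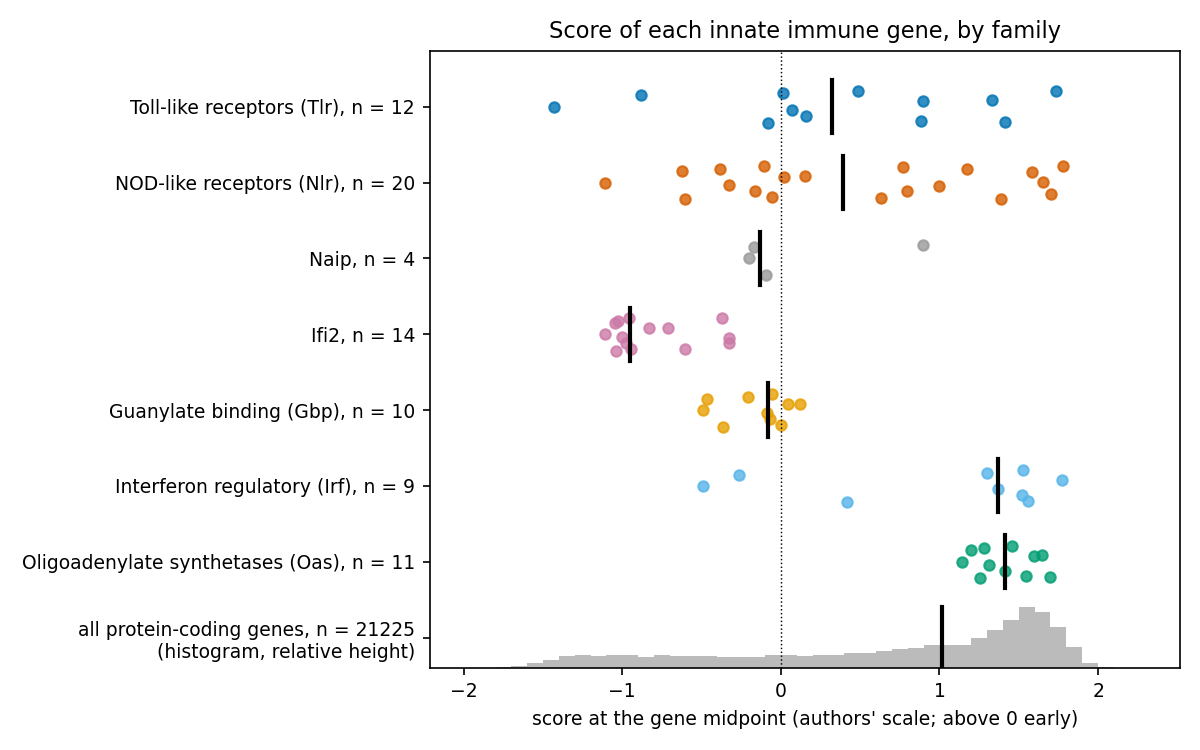
Score of each of the 80 genes at its midpoint, by family (1 point a gene, black bar the median), above a histogram of the 21225 protein-coding genes with a value. The 11 Oas genes all lie above 1, the 14 Ifi2 genes all lie below 0, and the Gbp genes lie between -0.49 and 0.12.

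A further mark of these genes was a score close to 0. Within 0.25 of 0 lay 19 of the 80 genes (23.8%), against 8.74% of all protein-coding genes, and 7 of the 42 loci (16.7%). At the autosomal median as zero point the count was 21 (26.2%), against 8.19% of all protein-coding genes. These 19 genes were Tlr3, Tlr5, Tlr7, Tlr8, Nlrp1a, Nlrp10, Nlrp4a, Nlrp9a, Nlrp9c, Naip2, Naip5, Naip6 and 7 Gbp genes. Runs of positions of 1 sign below 300 kb in length, and so within the smoothing, held 13 of the 80 genes, and 3.78% of all protein-coding genes lay in such runs. Of the others among the 80, 38 lay in 26 early domains and 29 in 11 late ones, longer runs of 1 sign. Of the 21225 protein-coding genes 15182 lay in early domains and 5240 in late ones. A change of sign lay within 250 kb of 30 of the 80 genes (37.5%), against 29.4% of all protein-coding genes. The ends of 2 of the 80 genes, Gbp5 and Tlr8, had scores on different sides of 0, as did 2.97% of all protein-coding genes.

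Of the 5 Toll-like receptors at the cell surface 4 lay above 0 and 1 was late. Tlr2, which pairs with Tlr1 or Tlr6 to bind bacterial lipoproteins, scored 1.41 on chromosome 3. Its partners Tlr1 at 0.89 and Tlr6 at 0.88 are neighbours on chromosome 5, in an early domain of 2.96 Mb, and count as 1 measurement. Tlr5, the flagellin receptor, lay near the border at 0.068, and its nearest change of sign was 31.2 kb away. Tlr4, which detects bacterial lipopolysaccharide, was late at -0.88 (chromosome 4, 66827551 to 66846581). It lay in a late domain of 10.5 Mb with a median of -1.198, it was 3226 kb from the nearest change of sign, and no other protein-coding gene had its midpoint within 500 kb.

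The endosomal receptors for nucleic acids spanned the scale from the border to the early end. Tlr9, which binds unmethylated CpG DNA, was the earliest Toll-like receptor at 1.74 (chromosome 9, 106222598 to 106226876). Tlr13, a receptor for bacterial ribosomal RNA, scored 1.33 on chromosome X. Tlr7 and Tlr8, receptors for single-stranded RNA that are also on chromosome X (167241123 to 167330574), scored 0.158 and 0.015. Tlr3, the receptor for double-stranded RNA, scored -0.081 and lay 19.3 kb from a change of sign, at the edge of a late domain of 0.56 Mb. At the autosomal median as zero point Tlr3 scored 0.223. The profilin receptors lay far apart, with Tlr12 at 0.48 and Tlr11 at -1.43 (chromosome 14, 50357914 to 50363663). Tlr12 sat on a steep slope, with a gain of 2.45 over the 500 kb around its midpoint. Tlr11 had 27 olfactory or vomeronasal receptor genes within 500 kb. Of all 12 Toll-like receptors 9 (75%) lay above 0, near the 73.5% of all protein-coding genes, with a median of 0.32 against 1.02, and 4 lay within 0.25 of 0.

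Among the NOD-like receptors, those outside the Nlrp group were all early. Nlrx1 scored 1.78, Nlrc3, a regulator of T cell and innate signals, 1.70, Nlrc4, the adaptor that joins Naip proteins in an inflammasome, 1.65, and Nlrc5, an activator of MHC class I genes, 1.17. These 4 genes lie on 4 chromosomes, so they are separate loci. All 4 lay above 1, as did 50.5% of all protein-coding genes.

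The Nlrp sensors of inflammasomes were divided. Nlrp3, the sensor of many forms of cell damage, scored 1.39 (chromosome 11, 59541569 to 59566955), and Nlrp6, a sensor of the gut epithelium, scored 1.58. Nlrp10, which lacks the leucine-rich repeats of the family, lay at the border at 0.022. Nlrp1a at -0.162 and Nlrp1b, the sensor of anthrax lethal factor, at -0.62 share a locus on chromosome 11 (71091197 to 71242514). The score fell by 2.60 over the 500 kb around Nlrp1a and fell by 2.09 around Nlrp1b, from lower to higher coordinates. Nlrp12 had no value, since its nearest position was 100.073 kb away, just outside the limit. The most distant position used was that of Naip5.

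The Nlrp genes known for expression in oocytes and testis were divided between early and late, and none passed 1 at its midpoint. At the gene ends Nlrp9b scored 1.37 (lower coordinate) and 0.37 (higher), and Nlrp4c scored 0.56 (lower) and 1.16 (higher). Of the 11 with a value 5 lay above 0 (45.5%), with a median of -0.058, in 8 loci of which 4 lay above 0. Nlrp9b at 0.999, Nlrp4c at 0.80, Nlrp14 at 0.77, Nlrp4f at 0.63 and Nlrp9a at 0.151 were early. Nlrp9c at -0.058 and Nlrp4a at -0.106, the neighbours of Nlrp9a, were late by a small margin, and at the autosomal median as zero point they scored 0.246 and 0.199. Nlrp5, a maternal factor needed for the first cleavages of the embryo and also called Mater, scored -0.33. Its neighbour Nlrp4e scored -0.61, Nlrp2 -0.39 and Nlrp4b -1.11, the lowest of the family. Nlrp2 and Nlrp4c lie within 1 Mb of each other on chromosome 7 on opposite sides of a change of sign. Around Nlrp2 the score fell by 2.95 over 500 kb, and around Nlrp4c it gained 2.396. Nlrp4g, at 203 kb from a position, had no value. A change of 2 or more over 500 kb was found at 5 of 76 genes with both flanks (6.58%), Nlrp2, Nlrp1a, Nlrp1b, Nlrp4c and Tlr12, and at 4.85% of all protein-coding genes. Of the 20 NOD-like receptors with a value 12 (60%) lay above 0, against 73.5% of all protein-coding genes, with a median of 0.39.

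The Naip genes, which recognise flagellin and parts of the bacterial secretion needle, crossed from late to early within their cluster. Along chromosome 13 (100144063 to 100452864) Naip2 scored -0.095, Naip5 -0.168, Naip6 -0.200 and Naip1 0.89. Naip1 stood apart from the other three, at the foot of an early domain of 0.72 Mb with a median of 1.35. The cluster spans 309 kb, about the width of the smoothing, so these 4 values overlap in their reads. At the autosomal median as zero point all 4 lay above 0. Copies of this family are close in sequence, and no source used here says how reads with several matches were treated. The median number of positions within 150 kb of a midpoint was 33 for the Naip genes, 37.5 for the NOD-like receptors and 38.5 for the Ifi2 genes, against 49 for all protein-coding genes, and the part of this in their scores was not tested.

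**Figure D2:**
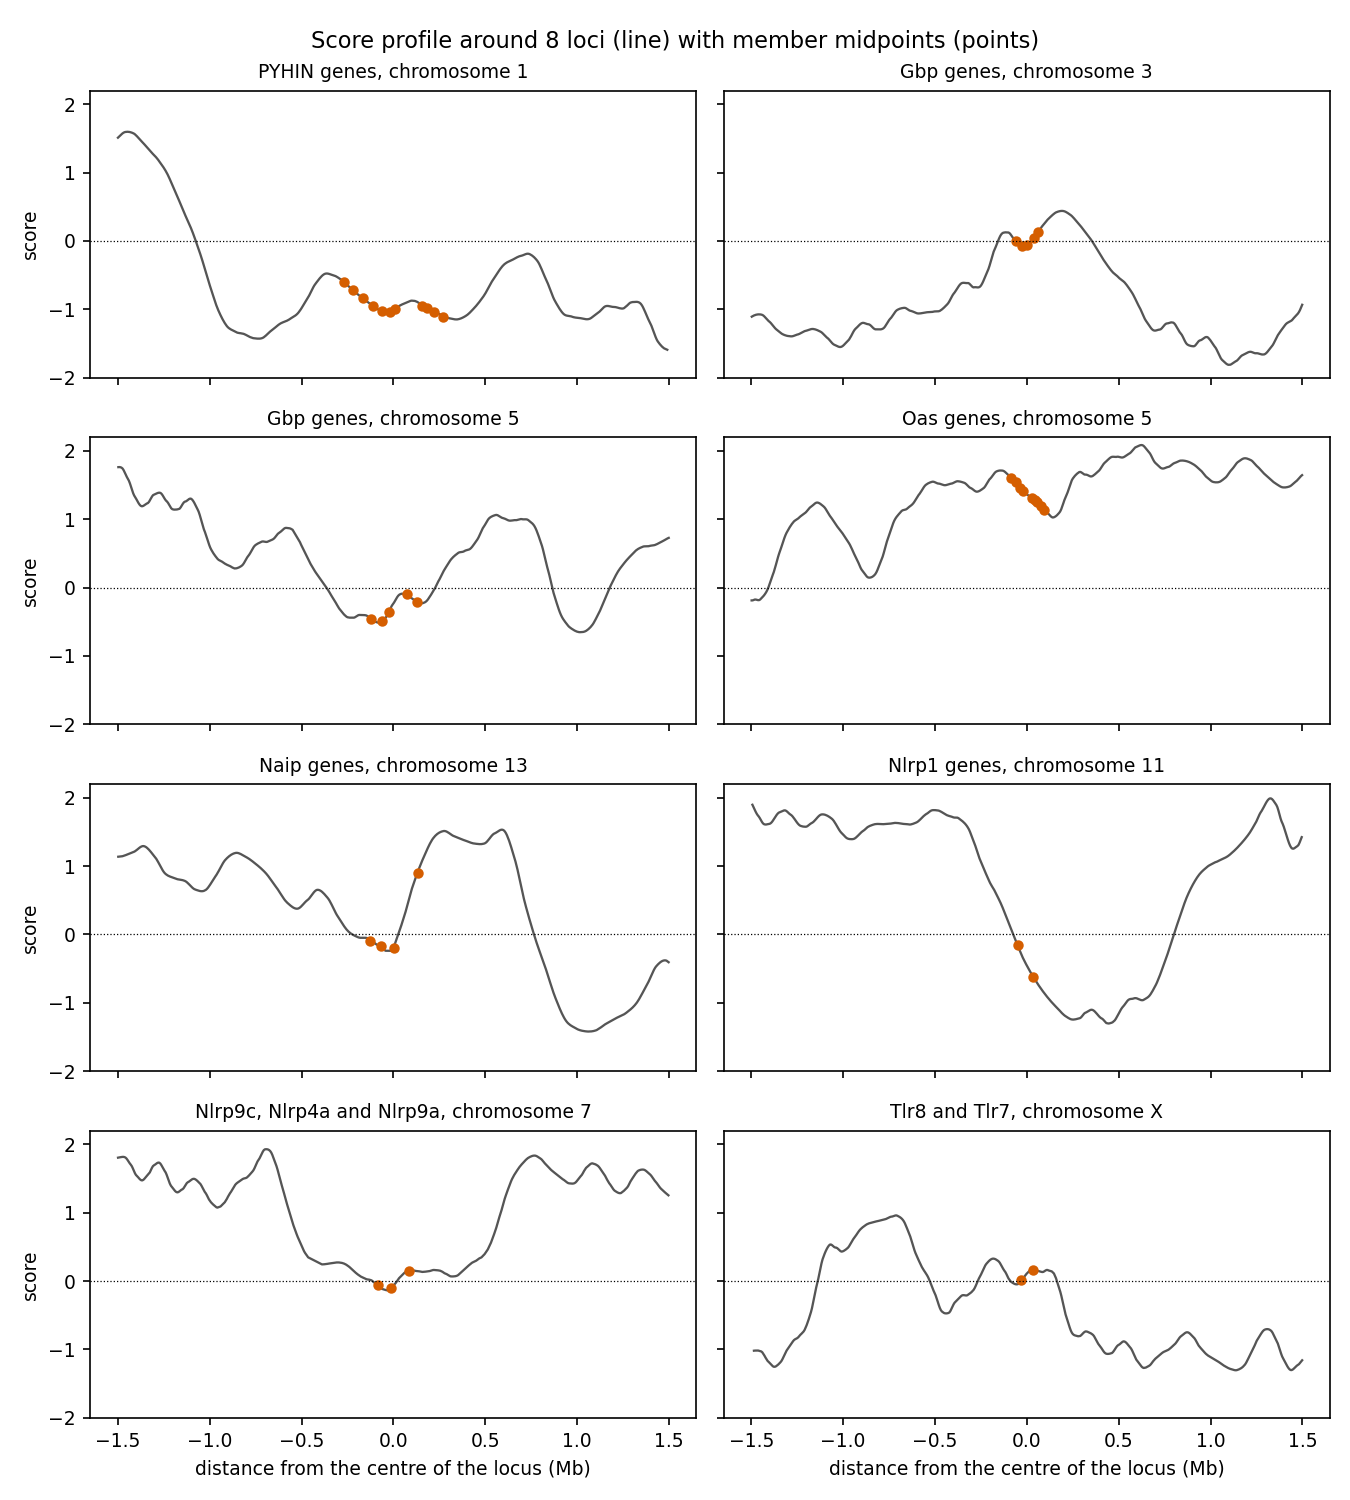
Score along 1.5 Mb to each side of 8 loci (grey line, x axis in Mb from the centre of the locus, y axis the score), with the midpoints of the genes as orange points. The PYHIN genes lie in a late stretch, the Oas genes on a gentle slope within an early plateau, the Gbp genes of chromosome 3 on a low rise between late flanks, and the Naip and Nlrp1 genes on slopes.

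The Ifi2 genes were the one family late throughout. All 14 lay below 0, as did 26.5% of all protein-coding genes, with a median of -0.95. They form 2 loci, with medians of -0.98 and -0.33, and genes within a locus are not separate measurements. Of the 14 genes, 11 form the PYHIN cluster of chromosome 1 (173468485 to 174031755), genes of interferon-inducible proteins, many of them with DNA-binding HIN domains. Their scores ran from -0.60 for Ifi206 to -1.11 for Ifi205, with a median of -0.98. Below -1 lay 7 of the 80 genes, 5 of them in this cluster beside Tlr11 and Nlrp4b, and 9.59% of all protein-coding genes. Ifi204, a sensor of viral DNA related to human IFI16, scored -1.003, and Ifi202b, known as a lupus candidate gene in mice, -1.04. The cluster lay in a late domain of 3.19 Mb, and its genes were 804 to 1346 kb from the nearest change of sign. The neighbours Aim2 and Mndal, which the name patterns do not select, were late as well. Aim2, the inflammasome sensor of cytosolic DNA, scored -0.49 and Mndal -0.88. The other 3 genes, Ifi27, Ifi27l2a and Ifi27l2b, encode small interferon-induced proteins of membranes of mitochondria and the nucleus and are not PYHIN genes. They lie within 23.4 kb on chromosome 12 and scored -0.33, -0.33 and -0.37, and at the autosomal median as zero point they stayed below 0 at -0.023, -0.023 and -0.067.

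The Gbp genes, GTPases that attack the membranes of vacuoles around pathogens, lay at and below the border in both of their clusters. On chromosome 3 (142496934 to 142638008) Gbp5 scored 0.0029, Gbp7 -0.069, Gbp3 -0.057, Gbp2b 0.044 and Gbp2 0.123. The whole cluster spans 141 kb, so these are 1 measurement on a low rise between late flanks. On chromosome 5 (105012513 to 105295871) Gbp8 scored -0.46, Gbp9 -0.49, Gbp4 -0.36, Gbp10 -0.088 and Gbp6 -0.208. In all 3 of 10 (30%) lay above 0, against 73.5% of all protein-coding genes. Within 0.25 of 0 lay 7 of 10, against 8.74%. The 10 genes form 2 loci. At the autosomal median as zero point 7 of 10 lay above it, against 78.5% of all protein-coding genes.

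The Oas genes, enzymes that make a second messenger when they bind double-stranded RNA, were the one family early throughout. All 11 lay above 1, as did 50.5% of all protein-coding genes, with a median of 1.41. They form 2 loci. The 9 genes of the main cluster on chromosome 5 (120730333 to 120921648) lay in an early domain of 6.32 Mb. Their scores went down in order along the cluster, with Oas2 at 1.598, Oas3 at 1.54, Oas1e at 1.46, Oas1c at 1.41, Oas1f at 1.31, Oas1h at 1.28, Oas1g at 1.25, Oas1a at 1.20 and Oas1d at 1.14. This order follows from the slope of 1 smoothed profile over 191 kb. Oasl1 at 1.70 and Oasl2 at 1.65, which encode related proteins, lie apart from them on the same chromosome. The Oas genes and the Gbp genes of chromosome 5 share a chromosome and a response to interferon, and the lowest Oas score, 1.14, was above the highest score of that Gbp cluster, -0.088.

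Promoters of these induced clusters carried the same short element at late, intermediate and early loci. The interferon-stimulated response element is bound by interferon regulatory factors and by a complex that holds Stat2 and Irf9. Its core was searched as GAAA followed after any 2 bases by GAAA. For the other strand it was searched as TTTC followed after any 2 bases by TTTC, and overlapping matches were counted. The windows ran from 250 bases before to 50 bases after the starts listed with RefSeq promoters (GRCm38.p6). Such a sequence was held for 62 of the 80 genes, and the core occurred in 21 of them (33.9%), against 3.94% of 17492 protein-coding genes and 3.44% of all 32851 windows. The PYHIN genes had it in 8 of 10 promoters, the Gbp genes of chromosome 3 in 5 of 5 and the Oas genes in 4 of 8. Those 4 all lie in the main Oas cluster, and Oasl1 and Oasl2 lacked the core. No promoter sequence was held for the Gbp genes of chromosome 5, Ifi27, Ifi27l2a and Ifi27l2b, so they were not searched. It was found in 2 of 10 Toll-like receptors, 1 of 17 NOD-like receptors, 1 of 8 interferon regulatory factors and 0 of 4 Naip genes. Tandem copies share promoter sequence, so the counts within a cluster are not separate. The 21 genes with the core had scores from -1.43 to 1.54 with a median of -0.33, and 8 of them lay above 0. They fell in 7 loci, of which 3 lay above 0. Of the 41 genes without the core 27 lay above 0, with a median of 0.89, and by locus it was 23 of 32. Some loci hold genes of both kinds, and the difference was not tested. The gamma-activated site core TTCNNNGAA, which reads alike on both strands, was in 12 of the 62 (19.4%), against 8.92% of protein-coding genes.

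The 250 bases before the start are printed for 1 gene of each of 3 induced clusters and for a regulator without the core, chosen after their scores were known, 5′ to 3′ with each core in capitals. They lie at chr1:174031756-174032005 on the minus strand (Ifi205, score -1.11), chr3:142620413-142620662 on the plus strand (Gbp2, 0.123), chr5:120907526-120907775 on the minus strand (Oas1a, 1.20) and chr6:29526375-29526624 on the plus strand (Irf5, 1.56). The start is the one listed with the promoter, which need not be the outer bound of the gene. The Irf5 stretch lies inside the bounds of its gene, which begin at 29526130. That of Oas1a overlaps its gene, which ends at 120907544. In Oas1a 2 cores overlap in 1 run that ends 4 bases before the start. In Gbp2 the core ends 49 bases before the start, and in Ifi205 124 bases before it. Irf5 shows no core and 25 CpG dinucleotides, against 1, 1 and 3 in Ifi205, Gbp2 and Oas1a.
Ifi205: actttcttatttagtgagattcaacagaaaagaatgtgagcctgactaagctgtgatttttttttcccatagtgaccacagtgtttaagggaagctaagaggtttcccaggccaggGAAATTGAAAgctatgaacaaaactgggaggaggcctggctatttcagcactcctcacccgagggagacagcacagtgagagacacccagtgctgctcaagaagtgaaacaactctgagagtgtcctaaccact
Gbp2: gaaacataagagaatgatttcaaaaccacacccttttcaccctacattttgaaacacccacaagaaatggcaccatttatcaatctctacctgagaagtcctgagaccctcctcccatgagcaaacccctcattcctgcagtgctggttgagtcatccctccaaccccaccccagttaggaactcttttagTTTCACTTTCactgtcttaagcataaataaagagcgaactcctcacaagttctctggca
Oas1a: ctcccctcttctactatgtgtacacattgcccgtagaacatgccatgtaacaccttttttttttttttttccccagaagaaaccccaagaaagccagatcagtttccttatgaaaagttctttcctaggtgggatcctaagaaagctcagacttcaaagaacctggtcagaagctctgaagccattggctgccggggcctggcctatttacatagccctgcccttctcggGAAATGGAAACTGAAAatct
Irf5: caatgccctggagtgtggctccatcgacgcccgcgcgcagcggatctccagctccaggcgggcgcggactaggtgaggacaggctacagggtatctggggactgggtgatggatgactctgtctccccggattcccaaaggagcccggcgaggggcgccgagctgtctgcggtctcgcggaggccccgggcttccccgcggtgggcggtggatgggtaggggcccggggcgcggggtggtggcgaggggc

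The interferon regulatory factors, the transcription factors that these sensors switch on, lay on both sides of 0 and are all separate loci. Irf3, which is activated first after nucleic acid sensing, scored 1.77 on chromosome 7 (44997648 to 45002848). Irf5 scored 1.56, Irf9, the DNA-binding part of the interferon-activated complex, 1.52, and Irf7, the main inducer of interferon alpha, also 1.52. Irf8, a factor of macrophage and dendritic cells, scored 1.37 and Irf1 1.297. Irf4, a factor of lymphocytes, scored -0.26 in a late domain of 1.40 Mb, and 0.042 at the autosomal median as zero point. Irf2, which competes with Irf1 for its sites, scored -0.49 at its midpoint and -0.192 at its lower-coordinate end (chromosome 8, 46739745 to 46847458). In all 7 of 9 (77.8%) lay above 0, near the 73.5% of all protein-coding genes. Their median was 1.37, and 6 of 9 lay above 1, against 50.5% of all protein-coding genes.

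The promoters of the interferon regulatory factors had a higher median CpG number than those of each other family. They held a median of 18.5 CpG dinucleotides per 300 bases (8 genes, 7 to 43), against 15 in all protein-coding genes. The median was 6.5 in Tlr (0 to 11), 3 in Oas, 2 in the Nlr, Ifi2 and Gbp families and 1 in Naip. The ranges of Irf and Tlr overlap. Promoters of the early Oas genes held 2 to 9 CpG and those of the late Ifi2 genes 1 to 5. Over the 35 loci with a promoter Spearman's rho between CpG number and score was 0.26, and over 17030 protein-coding genes it was 0.37. Both are descriptions across genes of 1 pair of libraries.

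**Figure D3:**
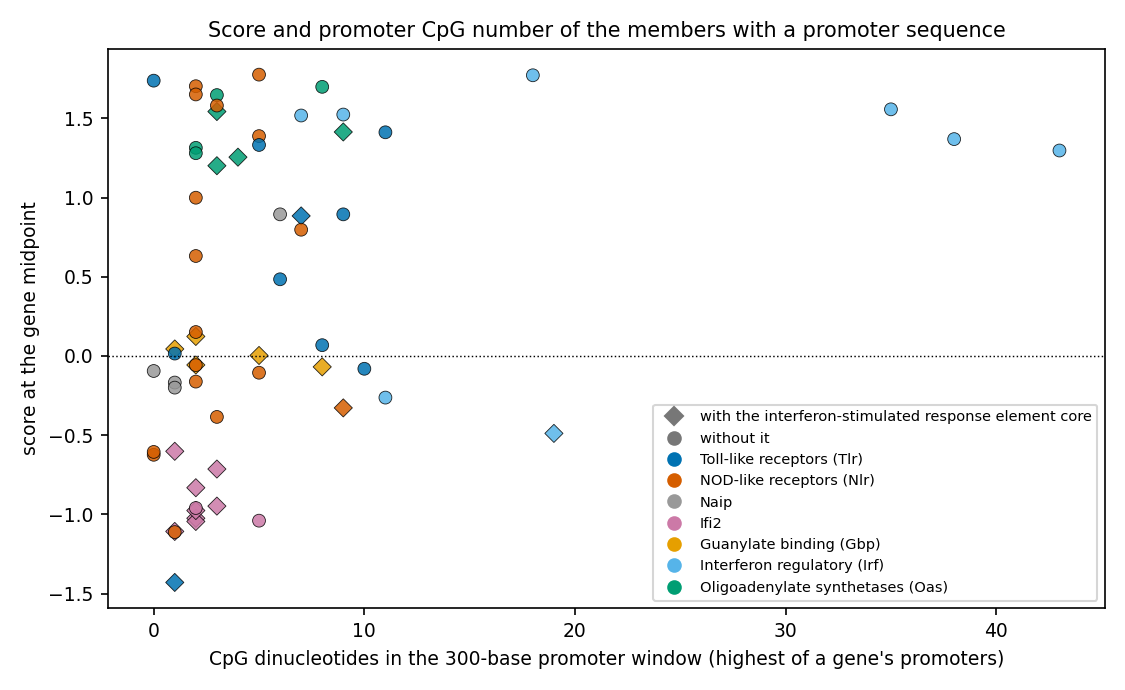
Score at the midpoint (y axis) against CpG dinucleotides in the 300-base promoter window (x axis) for the 62 genes with a promoter sequence, coloured by family, with diamonds for genes that hold the response element core. Diamonds lie at scores from -1.43 to 1.54, and the genes with more than 30 CpG are Irf1, Irf5 and Irf8.

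Counted by gene, the innate immune genes lay among many neighbours. The median number of other protein-coding genes within 500 kb was 19.5, against 15 for all protein-coding genes. This number includes copies in the same cluster, and each clustered gene enters the median separately. With 0 to 4 neighbours 3 of 4 innate immune genes (75%) lay above 0, against 31.1% of all protein-coding genes with as many. With 5 to 9 neighbours it was 5 of 12 (41.7%), against 70.2%. Among genes with 10 to 19 neighbours 11 of 24 innate immune genes (45.8%) lay above 0, against 82.2% of all protein-coding genes with as many. With 20 or more neighbours it was 24 of 40 (60%), against 81%. These bins count genes, and clustered genes are not separate measurements. All 11 PYHIN genes of 1 late locus and all 9 genes of the early main Oas cluster fall among the 40. Tlr7 and Tlr8, which form 1 locus, fall among the 4 genes with 0 to 4 neighbours. Shares by locus were not computed for these bins. Over the 42 loci Spearman's rho between neighbours and score was 0.36, and over all protein-coding genes 0.44, again as descriptions. With a window of 250 kb it was 0.469 over the loci and 0.455 over all protein-coding genes, and with 1 Mb it was 0.227 over the loci and 0.426 over all protein-coding genes. The gene-rich end held Irf3 with 60 neighbours, and 4 loci with 20 or more neighbours were late, Tlr11 with 31, Nlrp2 with 30, the PYHIN cluster with a median of 25 and Nlrp4e with Nlrp5 at 21.

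Many neighbours were sensory receptor genes. At least 1 olfactory or vomeronasal receptor gene lay within 500 kb of 27 of the 80 genes (33.8%), against 7.40% of protein-coding genes that are not such receptors. These were 15 of 20 NOD-like receptors, 11 of 14 Ifi2 genes and Tlr11, and none of the Naip, Gbp, Irf and Oas genes. Of the 27 genes 9 (33.3%) lay above 0, with a median of -0.60, and of the other 53 genes 34 (64.2%) did, with a median of 0.48. By locus it was 8 of 14 (57.1%) with such neighbours and 20 of 28 (71.4%) without. Among other protein-coding genes the shares were 78.9% with receptor neighbours and 77.3% without. This comparison was chosen after the scores were seen.

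**Figure D4:**
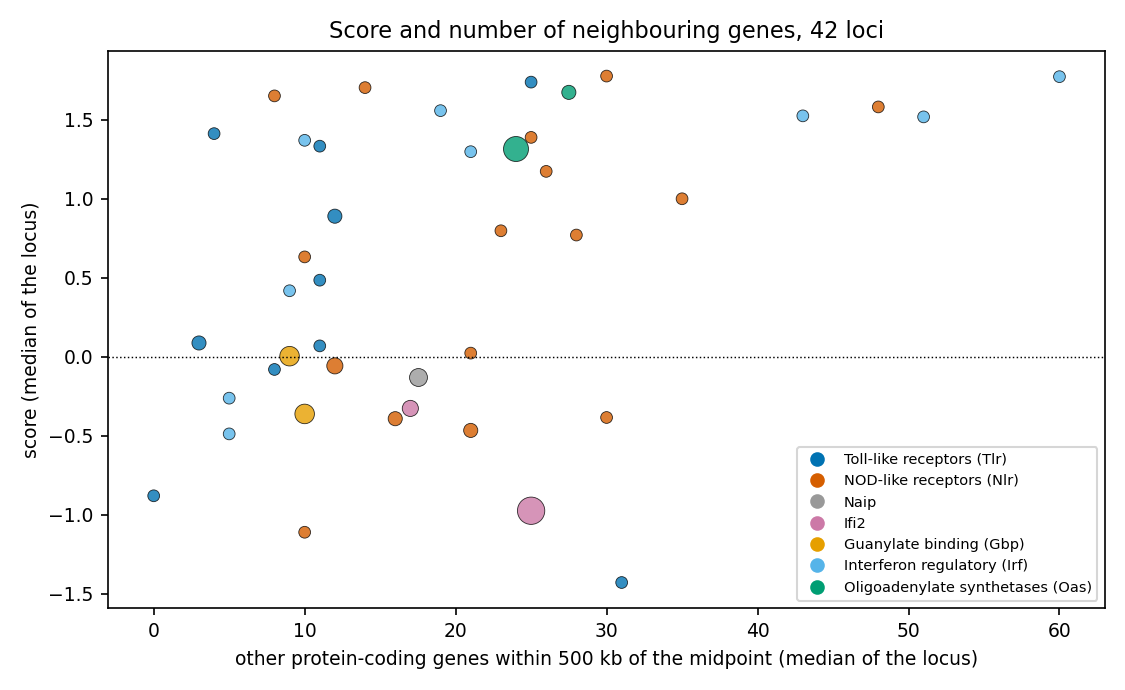
Median score of each of the 42 loci (y axis) against the median number of other protein-coding genes within 500 kb (x axis). Point size grows with the number of genes in the locus and colour gives the family. Tlr4 stands at 0 neighbours with -0.88, Tlr11 at 31 with -1.43 and Irf3 at 60 with 1.77.

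Partner genes of the same pathways had a median score close to that of all protein-coding genes. Of 71 such genes with a value, Aim2 and Mndal among them, 58 (81.7%) lay above 0, against 73.5% of all protein-coding genes, with a median of 1.04 against 1.02. Partners are counted by gene, and those that lie close together share smoothed reads and are not separate measurements. Of 26 genes of Toll-like receptor signalling 25 lay above 0. The adaptor Myd88 scored 1.60. The highest were Nfkbia, the inhibitor of NF-kB, at 1.81, Tab1 at 1.76 and Traf3 at 1.74. The lowest were Traf6 at 0.38, Ly96, the co-receptor of Tlr4, at 0.47, and Cd36, a scavenger receptor, at -1.23.

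The partners of NOD-like receptors were more divided, with 8 of 13 above 0. The adaptor Pycard, which links sensors to caspase-1, scored 1.805, the pore former Gsdmd 1.57 and Il1b, an inflammasome product, 0.89. Nod1 scored 0.52 and Nod2 0.38, both of them sensors of bacterial cell wall fragments. Late were Aim2 and Ripk2, the kinase below Nod1 and Nod2, at -0.54. Lower still were Nek7, which binds Nlrp3, at -0.91, and the inflammasome proteases Casp4 at -1.31 and Casp1 at -1.41. Casp1 and Casp4 are neighbours on chromosome 9 and count as 1 measurement. Of 9 genes of cytosolic nucleic acid sensing 8 lay above 0. The highest were Trim25 at 1.73, Sting1 at 1.65 and Dhx58 at 1.63, the mitochondrial adaptor Mavs scored 1.61, and Ddx58, which encodes the RNA sensor RIG-I, 1.04. Zbp1 scored 0.91, and the lowest was Ifih1, which encodes the RNA sensor MDA5, at -0.73.

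Of 15 interferon response genes 11 (73.3%) lay above 0, near the 73.5% of all protein-coding genes. The highest were the receptor kinase gene Tyk2 at 1.90, Bst2, which tethers budding virions, at 1.79, and the ubiquitin-like modifier Isg15 at 1.78. Stat2, a part of the interferon-activated complex, scored 1.76. The late ones were antiviral effectors, the neighbours Ifit1 at -0.24, Ifit3 at -0.57 and Ifit2 at -0.63 on chromosome 19, and Rsad2 at -0.88. Ifit1 scored 0.067 at the autosomal median as zero point. Among 7 other interferon-inducible GTPases 6 lay above 0. The scores ran from Gvin1 at -0.45, Iigp1 at 0.123 and Tgtp2 at 0.140 to Irgm2 at 1.52, Igtp at 1.53 and Irgm1 at 1.55. Igtp and Irgm2 are neighbours on chromosome 11, where Irgm1 and Tgtp2 also lie within 300 kb of each other.

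**Figure D5:**
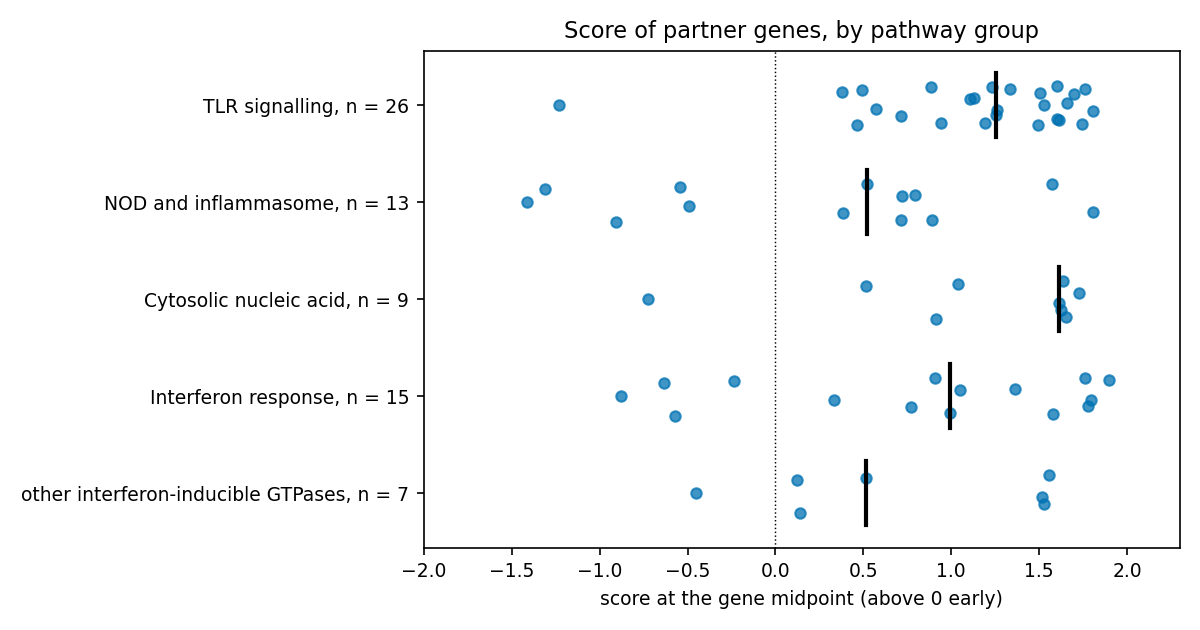
Score at the gene midpoint of partner genes by pathway group (1 point a gene, black bar the median). Signalling genes of the Toll-like receptors lie above 0 except Cd36 at -1.23, and the inflammasome group runs from Casp1 at -1.41 to Pycard at 1.805.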

How the data were processed

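Bowtie2 and the build mm10 are named for the 2 libraries, 1 of early and 1 of late S phase cells, per the submitters' processing notes. From both, the authors computed 1 score per position, smoothed over 300 kb, which is the deposited value. No source used here gives its read counting, scaling, log base or zero point. The read depth is unknown, so no counting interval was computed. Of 384798 positions, at a median spacing of 5778 bp, 4 had no value. Unused columns of per-sample values numbered 0.

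Genes came from RefSeq on GRCm38.p6, which shares its chromosome coordinates with mm10, and 348 genes listed with coordinates of scaffolds were left out. Exons and introns were not analysed here. Domains were runs of 1 sign of at least 300 kb, ended by gaps over 300 kb. Distances to a change of sign do not count such gaps. The lookup and the runs were tested on simulated data. Promoters came from a RefSeq table of the same build, and a gene with several promoters was counted by any of them and by its highest CpG number. Partner genes were a list of 80 entries by name. Of these, 4 were older names of members, 2 (Mx1 and Mx2) were not matched to a protein-coding gene, and repeats were counted once. A planned comparison of protein identity needs protein sequences, which were not used here.

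The genes and lists were chosen with earlier results of these data known. The text names every Toll-like receptor and interferon regulatory factor, the extremes of families and loci, genes within 0.25 of 0, and set partner genes with the 3 highest and 3 lowest of each group, except 3 genes that are counted in their groups and not reported here by name. The motif search, the promoters shown and the receptor neighbours were chosen after the values were seen. The remaining genes are named to account for all, after their values were seen. Alternatives moved the zero point, the place read in the gene, the joining distance, the minimum run and the window of neighbours, or left out members near 0, far from a position, on chromosome X or of 1 family. Python 3.11.15, numpy 2.4.6, pandas 2.3.3, scipy 1.17.1 and matplotlib 3.10.9 were used.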

Additional observations from a re-analysis of the deposited data

How the results depend on the processing

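No paired analysis was possible because there was 1 library per fraction and no test. The count of genes above 0 stayed within 1.5 times the main value of 43 under every alternative run. The counts of loci and of domains holding members also stayed within 1.5 times their main values. This rule is wide and ignores the number of genes left in. The share of genes above 0 ran from 32 of 69 (46.4%) without the Oas family to 55 of 80 (68.8%) at the autosomal median as zero point. At that zero point the share of all protein-coding genes was 78.5%. The planned comparison of protein identity between copies was not run. The median score of the 80 genes, 0.033, is close to 0 and changed sign to -0.027 without the Tlr family and to -0.069 without the Oas family. It was 1.173 without genes within 0.5 of 0, which removes the middle of the list by construction. That setting left 5 Tlr genes above 0. The zero point at the autosomal median, which lies at -0.305, put 4 Naip and 7 Gbp genes above 0 and turned both family medians positive, at 0.173 and 0.226. It also turned 12 genes positive: Naip2 0.210, Naip5 0.137, Naip6 0.104, Gbp10 0.217, Gbp3 0.248, Gbp6 0.096, Gbp7 0.236, Irf4 0.042, Nlrp1a 0.143, Nlrp4a 0.199, Nlrp9c 0.246 and Tlr3 0.223. At a gene end Gbp5 was -0.041 (higher coordinate) and Tlr8 -0.029 (lower coordinate). Without genes near 0 the Naip median was 0.894, from 1 gene. The Gbp median was 0.003 over the 5 genes with a promoter sequence and 0.001 at their transcription start sites, settings added after the data were seen. The smoothing limits what can be told apart within a locus, and the unknown depth leaves the error of single scores unmeasured.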

Other observations

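Gene copies of these families that are annotated as pseudogenes lay on the same side of 0 as the genes beside them at the Oas and PYHIN clusters. Copies inside a cluster share smoothed reads with those genes, so their scores are not separate measurements. This holds for Oas1b, Ifi203-ps and Naip3, whose likeness to the genes around them the smoothing largely fixes. The name patterns also matched 10 entries that are not protein-coding, of which 3 lay above 0, with a median of -0.217. In the early Oas cluster Oas1b, annotated as a transcribed pseudogene in this reference, scored 1.39. In the late PYHIN cluster Ifi203-ps scored -0.95. Nlrp4d at -1.28 and Nlrp5-ps at -1.40, both on chromosome 7, were lower than every Nlrp gene that encodes a protein. Nlrp1c-ps, on the late side of Nlrp1b, scored -0.86. Within the Naip cluster Naip3 at 0.33 lay between Naip6 at -0.200 and Naip1 at 0.89 in place as in score. Gbp2-ps, beside Gbp2, scored 0.252, and Gbp11, beside Gbp6, scored -0.194.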
